A study of Mus musculus with 4 samples.

Results

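The open chromatin described here lies inside introns and carried an ATAC-seq peak in every library of a short IL-4 stimulation experiment in mouse macrophages. Peaks of the 4 libraries that overlapped by at least 1 bp on chromosomes 1 to 19, X and Y were merged into 60710 regions, and each region took the annotation, start site distance and gene of its highest peak. Of these regions, 24430 were intronic and 25442 had a peak in all 4 libraries. Both conditions were met by 8538 regions, which is 34.9% of the intronic regions and 33.6% of the regions shared by all libraries. The choice therefore used measured values, namely the presence of a called peak in each library and the rank of peak heights within a region. A site that was closed in one condition cannot be among them.

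ATAC-seq maps open DNA through the insertion of adapters by the Tn5 transposase. The cells were wild-type bone marrow-derived macrophages (BMDMs) from C57BL/6 mice of 8 to 12 weeks, grown from bone marrow for 6 days with L929 supernatant, a source of the macrophage growth factor M-CSF. Control cells (2 libraries) received no cytokine. The other cells (2 libraries) were exposed to 20 ng/ml of IL-4 over 1 h. No genetic change distinguished the groups, so the model is a bulk culture derived with a single growth factor supernatant, and each library is an average over its cells.

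Introns hold many of the enhancers of mammalian genes, the distal elements that bind transcription factors and act on promoters over a distance. In macrophages such elements are opened by lineage factors including PU.1, C/EBP proteins, AP-1 and RUNX1, and signal-dependent factors bind to sites that these factors keep open. IL-4 signals through its receptor and JAK kinases to STAT6, which dimerises and recognises a palindromic motif, TTC and GAA held apart by a spacer. STAT6 is known for accepting a 4-base spacer, whereas most other STAT proteins prefer a 3-base spacer.

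The sequences below are those of the regions on which the comparison between conditions turned, read from GRCm38.p6, the assembly behind mm10, on the plus strand and from 5′ to 3′. Capitals mark the STAT motif with its 4-base spacer, TTCNNNNGAA, which reads the same on both strands. The first sequence is a 300-base stretch of the intronic region of Tbc1d2b at chr9:90244625-90244924. The other, the whole region of Ascc3 at chr10:50702454-50702657, is shown because it moved in the opposite direction and contains neither the capitalised motif nor any other of the 20 motifs that were searched. The region of Tcf4, which also fell and passed, holds an AP-1 motif and is not shown.
Tbc1d2b intron 2: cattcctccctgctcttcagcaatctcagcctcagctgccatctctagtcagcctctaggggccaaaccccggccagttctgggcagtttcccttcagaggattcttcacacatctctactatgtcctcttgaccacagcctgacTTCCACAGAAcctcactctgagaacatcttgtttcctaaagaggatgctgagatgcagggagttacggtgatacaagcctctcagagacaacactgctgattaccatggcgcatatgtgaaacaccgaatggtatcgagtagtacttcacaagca
Ascc3 intron 16: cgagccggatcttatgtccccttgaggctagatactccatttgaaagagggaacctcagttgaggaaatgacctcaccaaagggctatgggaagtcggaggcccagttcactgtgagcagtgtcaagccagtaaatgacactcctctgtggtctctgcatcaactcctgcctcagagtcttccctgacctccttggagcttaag

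Shorter windows of 30 bases show the same motif in other regions whose peaks were higher in both IL-4 libraries, so that the variable spacer can be read between the constant outer letters.
Focad intron 8, chr4:88179512-88179541: agctcaagagTTCCTAGGAAgaaagatctg
Ror1 intron 4, chr4:100347933-100347962: aactcatgacTTCCCCAGAAgagtgtgtgt
Sacm1l intron 7, chr9:123563727-123563756: taaatacgacTTCTCAGGAAggagagtatg
Snap47 intron 3, chr11:59422004-59422033: agttgagctaTTCCACAGAAcactgtggtt
Frmd4b intron 2, chr6:97429654-97429683: tgtgagggtgTTCCTAGGAAccatgcagtc
Asap2 intron 12, chr12:21227655-21227684: cagtcacagcTTCCTGAGAActctgaggtc

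Windows of the same length from regions whose peaks were lower in both IL-4 libraries are given next, with the AP-1 motif TGANTCA in capitals. AP-1 was the commonest of the lineage motifs searched, in 35.8% of the shared intronic regions. It stood in 6 of the 10 lower regions with the lowest p and in 4 of the 10 higher ones. Among the latter were Focad, Snap47 and Dnajc24, whose AP-1 motifs are not shown, so the windows do not set the lower regions apart.
Vav2 intron 3, chr2:27327166-27327195: tagggtgcagcTGACTCAgagcctcctggg
Tmem189 intron 2, chr2:167649381-167649410: ctctgttgttaTGACTCAaccctgccaaca
Alg12 intron 3, chr15:88815492-88815521: actgatgtgaaTGACTCAacaggaaacaca
Fat3 intron 2, chr9:16233624-16233653: tcttaaTGAGTCAtcagtgtgagaggtccc

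The files give 1 Peak Score per peak, read as −log10 of the peak caller's q-value and called peak height here, and they hold no reads, which leaves sequencing depth unknown. Among the peaks of the 2 controls, 17469 and 15756 were intronic (38.6% and 37.6%). After IL-4 there were 15649 and 14546 (37.3% and 36.9%). Both IL-4 shares lay below both control shares, by 1.04 percentage points on average (38.1 ± 0.699%, SD, n = 2, against 37.1 ± 0.296%, SD, n = 2). An exact permutation test gave p = 0.33 (two-sided), the smallest value that 2 libraries against 2 allow, and without control replicate 1 the difference was 0.547 points. Over the 8538 shared intronic regions the median height was 11.57 and 10.04 in the controls and 10.05 and 7.86 after IL-4. The second IL-4 library was thus the lowest throughout, and heights were quantile-normalised on the log2 scale before the groups were compared. Across the 8538 regions, which share their libraries and are not independent, the normalised log2 heights correlated with r of 0.71 between controls and of 0.66 between the stimulated libraries.

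Macrophage genes were well covered. Of 29 macrophage marker genes, 25 were the nearest gene of at least 1 region shared by the 4 libraries, and 13 of them of a shared intronic region, among them Csf1r and Msr1. In the other direction, 3 of 12 T cell markers, 2 of 9 B cell markers, 3 of 11 neutrophil and granulocyte precursor markers, 3 of 9 erythroid and megakaryocyte markers, 1 of 7 mast cell and basophil markers, 4 of 6 dendritic cell markers, 5 of 10 fibroblast and endothelial markers and 1 of 6 neuron markers had a shared region. Cd3e, Elane, Gata1, Kit, Siglech and Col1a1 had none, whereas Ms4a1, Flt3, Pecam1 and Map2 of these lists had at least 1. The macrophage genes Adgre1, Itgax, Mertk and Spi1 were likewise without a shared region.

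The intronic regions were narrow, AT-richer than promoters and far from start sites. Their median width was 291 bp, with an interquartile range from 238 to 368 bp, compared to 424 bp for the 7919 shared promoter regions and 295 bp for the 7861 shared intergenic regions. The median GC content was 49.3% in introns, 64.3% in promoters and 48.7% in intergenic DNA. The ratio of observed to expected CpG dinucleotides was 0.218, 0.814 and 0.220 in the same order, so by base composition the intronic regions stood next to the intergenic ones.

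First introns held 3398 of the regions (39.8%), second introns 1510 and introns from the fifth onward 2289. Intron length was taken from the coding transcript with the longest summed introns in each of 20996 RefSeq genes. Measured against it, first introns carried 13.7 regions per Mb and later introns 7.60 per Mb, a ratio of 1.80. Regions were numbered by their annotated transcript, which can be a different one, so the ratio is approximate. The median distance to the nearest start site was 20398.5 bp, and 691 regions (8.09%) lay within 1 kb of one. Those 691 regions differed from the rest of the class in sequence, with a median GC content of 62.9% and an AP-1 motif in 13.6%, whereas 41.3% of the regions 50 to 100 kb from a start site had an AP-1 motif.

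**Figure D1:**
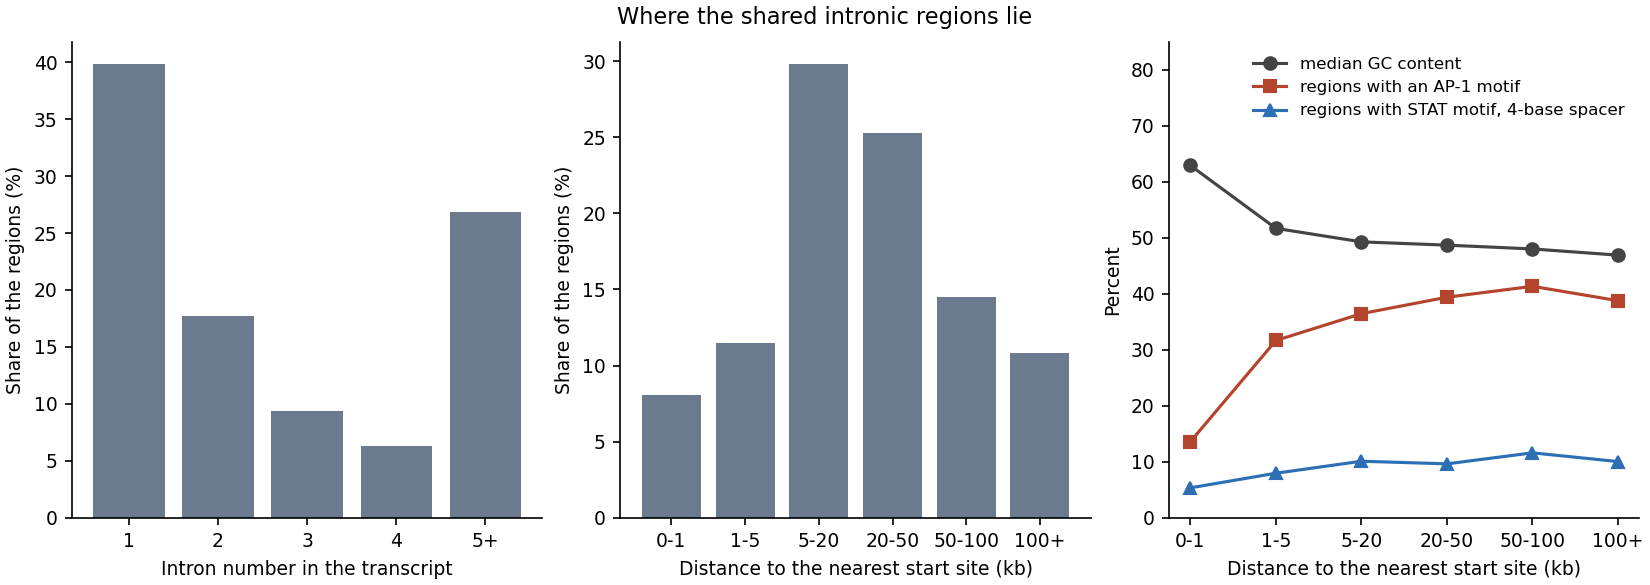
Share of the 8538 shared intronic regions by intron number (left) and by distance to the nearest start site in kb (middle), and their median GC content and share with an AP-1 motif or with the 4-base spaced STAT motif by that distance (right). First introns held 39.8% of the regions, and GC content was highest, at 62.9%, within 1 kb of a start site, where AP-1 motifs were found in 13.6%.

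The gene that hosts the intron and the gene with the nearest start site were not always the same. A host could be assigned for 8430 regions, and it was also the nearest gene for 6187 of them (73.4%). The transcript named in the annotation had an intron at that place in RefSeq for 8360 regions, and its number agreed in 8255 (98.7%). For 63 regions the annotated intron belonged to 1 of 17 microRNA transcript records, and RefSeq had no such intron for any of the 63. These included 13 regions assigned to Mir1195 and 5 assigned to Mir1950, 1 of which lay 9240 bp from the start of Clec5a, the gene of a myeloid lectin receptor. The regions of these records are intronic by the deposited annotation only.

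Annotated repeats were uncommon in the regions, since 6647 of the regions (77.9%) carried no repeat or CpG island label. LTR elements were named for 559 regions, CpG islands for 520, LINE elements for 322 and SINE elements for 292.

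To ask which intronic sites IL-4 changed, the log2 heights of all 25442 shared regions were fitted with limma, and p-values were adjusted over all of them. The intronic region of Tbc1d2b, a TBC domain protein, rose, and those of Ascc3, a DNA helicase, and Tcf4, an E protein transcription factor, fell. These were the 3 intronic regions past an adjusted p of 0.05, 1 higher and 2 lower of 8538. Over all shared regions the same threshold was passed by 0.0157% in the higher direction and by 0.00786% in the lower direction. At an unadjusted p under 0.05, 392 intronic regions were higher and 457 lower (4.59% and 5.35%), compared to 4.12% higher and 4.15% lower over all shared regions. Since the cells were measured in bulk, fewer cells with an open site and less opening per cell cannot be told apart.

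The Tbc1d2b region at chr9:90244412-90244958 lies in intron 2, 26069 bp from the start site. Its height was 4.87 and 4.84 in the controls and 23.24 and 16.30 after IL-4. Both IL-4 values were far above the control values, and the log2 change was 2.22 ± 0.45 (SE, limma adjusted p = 0.0374). The other 3 shared intronic regions of the gene had log2 differences of 0.40, 0.28 and 0.54 and did not pass (adjusted p = 0.760, 0.866 and 0.862).

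The Ascc3 region lies in intron 16, 109894 bp from the start site, and overlaps an MTD long terminal repeat. Heights of 29.44 and 23.09 in the controls stood against 6.62 and 5.05 after IL-4, without overlap. The log2 change was −1.98 ± 0.39 (SE, adjusted p = 0.0300). Regions in introns 3 and 14 of the same gene had log2 differences of 0.015 and 0.19 (adjusted p = 0.997 and 0.949).

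In intron 6 of Tcf4, 202269 bp from the start site, the region at chr18:69547808-69548131 had a height of 35.59 and 35.07 in the controls and of 16.47 and 7.86 after IL-4. The control pair agreed closely, and both IL-4 values were lower. The log2 change was −1.45 ± 0.29 (SE, adjusted p = 0.0303). Another Tcf4 region, in intron 8, pointed the other way with 6.23 and 9.26 in the controls and 9.92 and 17.89 after IL-4, a log2 difference of 1.05 that did not pass (adjusted p = 0.551).

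These calls rest on few libraries. None of the 3 was called with an untrended variance or with summed peak heights, and when control replicate 1, IL-4 replicate 1 or IL-4 replicate 2 was left out no intronic region passed in either direction. Without control replicate 2, 5 were higher and 0 lower. With the heights centred on their medians instead of quantile-normalised, 2 intronic regions were higher and 2 lower.

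Other regions with a low p, among the first 10 in each direction, did not pass the adjusted threshold and are given by their values. A region in intron 8 of Focad, near the microRNA gene Mir491, measured 15.59 and 17.26 in the controls and 35.26 and 29.09 after IL-4. The groups did not overlap, and the log2 difference was 1.13 ± 0.27 (SE, adjusted p = 0.151).

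Regions that were low in the controls made up most of the higher set. In intron 4 of Ror1, a receptor tyrosine kinase-like protein, heights were 7.20 and 6.18 in the controls and 25.39 and 13.73 after IL-4. Sacm1l, a phosphoinositide phosphatase of the endoplasmic reticulum, had 7.79 and 10.67 against 17.79 and 27.10 in intron 7. Further regions, in Dok6 (an adaptor protein), Flrt2 (a cell surface adhesion protein), Snap47 (a SNARE protein) and Dnajc24 (a co-chaperone), had control heights from 3.17 to 11.89 and IL-4 heights from 8.95 to 23.58. The log2 difference at Snap47 went from 1.84 to 0.55 (adjusted p = 0.740) when peaks within 500 bp were merged, and that at Flrt2 from 1.49 to 0.98 without control replicate 1. In each of the 10 regions both IL-4 libraries exceeded both controls. The 10 were picked by p from these same heights, so this describes the choice.

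The lower set began from tall control peaks. Both sets were picked by p from these same heights. Low controls in the higher set and tall controls in the lower set follow in part from that choice. In intron 3 of Vav2, a guanine nucleotide exchange factor, heights were 18.70 and 20.21 in the controls and 4.11 and 4.89 after IL-4, a log2 difference of −1.90 ± 0.46 (SE, adjusted p = 0.151). Its relative Vav3 had 25.66 and 20.31 against 10.38 and 4.46 in intron 1. Tmem189, which encodes a plasmalogen-forming desaturase, had 25.74 and 29.89 against 10.27 and 9.52 in intron 2. The regions in Fat3, Vti1a, Alg12, the non-coding gene 4921511C10Rik and next to Clec5a had control heights from 14.19 to 33.75 and IL-4 heights from 1.35 to 11.78. At Alg12 the log2 difference of −1.75 became −1.14 without IL-4 replicate 2. The lowest of these was the second IL-4 library in Vti1a at 1.35, close to the lowest score in the files.

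**Figure D2:**
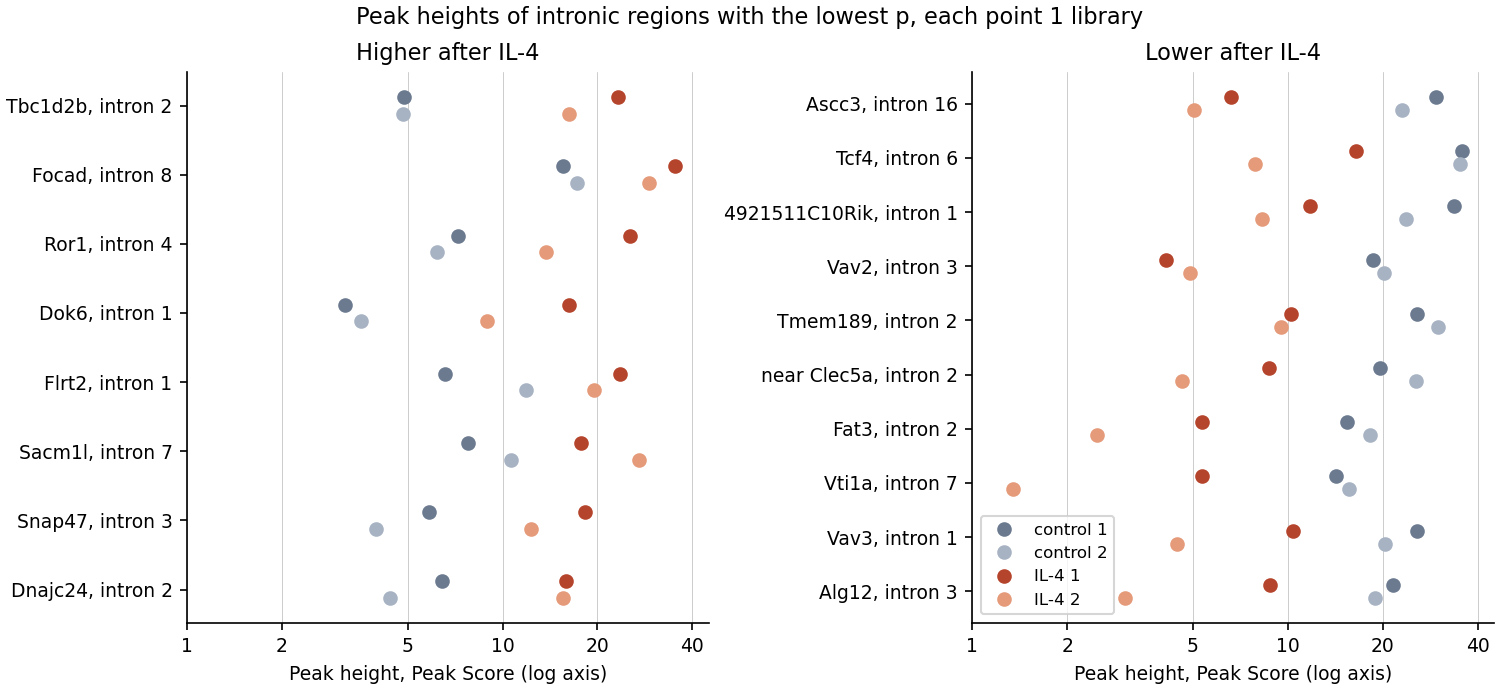
Peak height (Peak Score, log axis) in each of the 4 libraries for intronic regions with the lowest p, 8 in the higher and 10 in the lower direction, named by host gene and intron. The 2 IL-4 points lie beyond both control points in every row, from 16.30 and 23.24 against 4.87 and 4.84 in Tbc1d2b to 6.62 and 5.05 against 29.44 and 23.09 in Ascc3. The rows were picked by p from these heights.

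Motifs were then counted in the 2 sets. Of the 10 regions with the lowest p in the higher direction 8 held the STAT motif with a 4-base spacer, and of the 10 in the lower direction 0 did. The 3-base spacer stood in 4 and 0 of the 10, and in 9.26% of all shared intronic regions. The regions of Tbc1d2b, Focad and Sacm1l held both spacings. AP-1 motifs stood in 4 and 6 of the 10. These sets were picked by their heights, so the counts describe them and were followed up over the whole class, in which the motif search did not use heights.

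The spacer of 4 bases set this STAT motif apart from the other spacings that were searched, from 0 to 8 bases. The 817 intronic regions with TTCNNNNGAA (9.57%) had a median log2 change of 0.28, whereas the 7721 without it had −0.058. A motif of that spacing was found in 8.92% of all shared regions and in 8.49% of 17072 windows of the same lengths 2 kb away on either side of the intronic regions, so it was about as frequent around the peaks as in them. The medians for the other spacings lay between −0.032 and 0.055, the highest being that of the 3-base spacer (791 regions). Within pairs of libraries with the same number, the median with the 4-base spacer was 0.23 and 0.31.

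**Figure D3:**
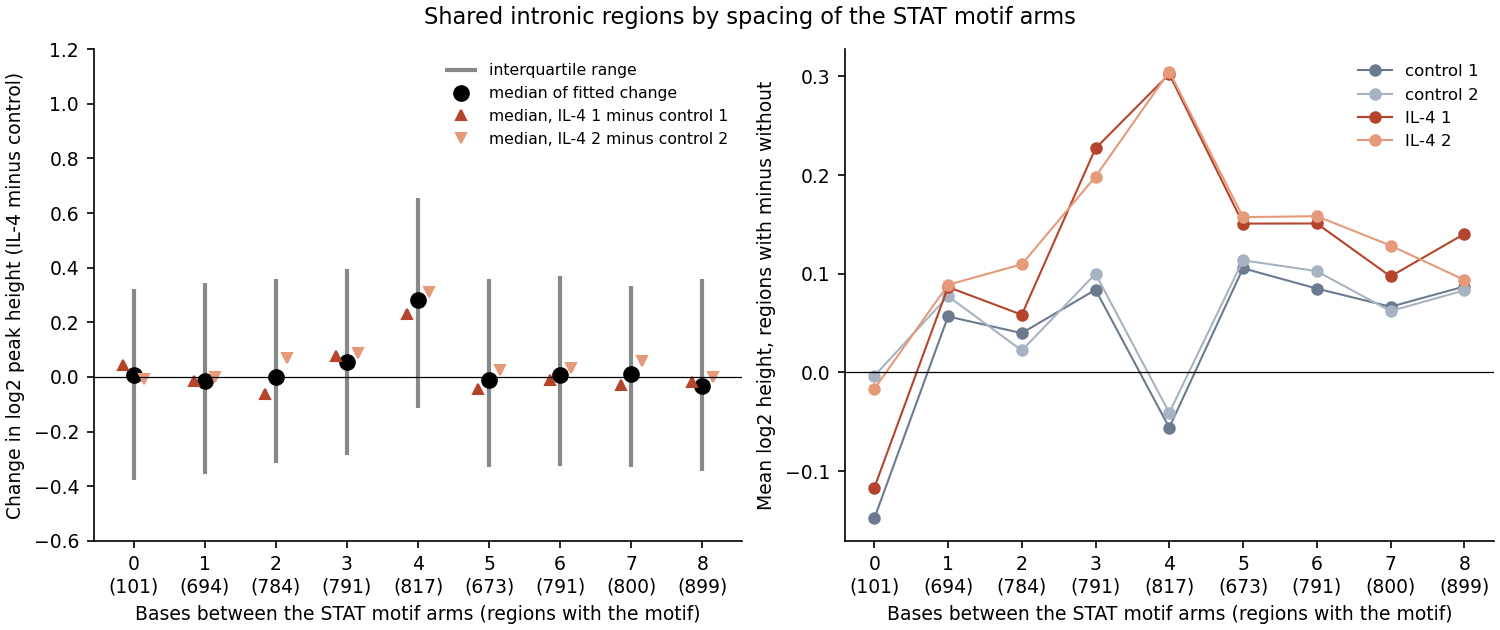
Left, change in log2 peak height after IL-4 of shared intronic regions by the number of bases between the arms of the STAT motif (median with interquartile range, and the median of each same-numbered pair). Right, mean normalised log2 height of regions with minus regions without the motif in each library. At 4 bases the median change is 0.28, and the controls lie at −0.056 and −0.041 while the IL-4 libraries lie at 0.30 and 0.30.

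This contrast was measured in each library as the mean log2 height of intronic regions with the 4-base motif minus that of regions without it. The value was −0.056 and −0.041 in the controls, so that regions with the motif were slightly lower before stimulation, and 0.302 and 0.305 after IL-4. The difference of 0.35 between the means (−0.048 ± 0.011, SD, n = 2, against 0.303 ± 0.0018, SD, n = 2) was many times the spread within either group. The exact permutation p was 0.33, the smallest that the design allows. For the 3-base spacer the same difference was 0.12, and for the remaining spacings it lay between 0.0090 and 0.061.

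The raw heights were compared as well. Regions with the 4-base motif had median heights of 10.96 and 9.71 in the controls and 12.43 and 9.81 after IL-4. Regions without it had 11.65 and 10.08 in the controls and 9.74 and 7.74 after IL-4. Of the 817 regions with the motif, 68.3% had a log2 change above 0, and 129 were higher and 23 lower at an unadjusted p under 0.05 (15.8% and 2.82%). The same shares were 4.59% and 5.35% over all shared intronic regions and 4.12% and 4.15% over all shared regions. Peak width moved in the same direction, with a median log2 width change of 0.19 in regions with the motif and −0.012 in those without.

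The share of regions with the 4-base motif followed the size of the change across the whole class. It was 32.6% among the 291 regions with a log2 change above 1 and 17.4% among the 1007 between 0.5 and 1. It was 10.5% among the 2731 between 0 and 0.5 and 6.40% among the 2968 between −0.5 and 0. Among the 311 regions below −1 it was 4.18%, or 13 regions. The remaining 196 of the 291 regions above 1 had no such motif. The share with the 3-base spacer moved the same way over a smaller range, from 15.8% above 1 to 5.79% below −1. Of the regions with that spacer, 8.09% were higher and 3.79% lower at an unadjusted p under 0.05, against 4.12% and 4.15% of all shared regions.

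**Figure D4:**
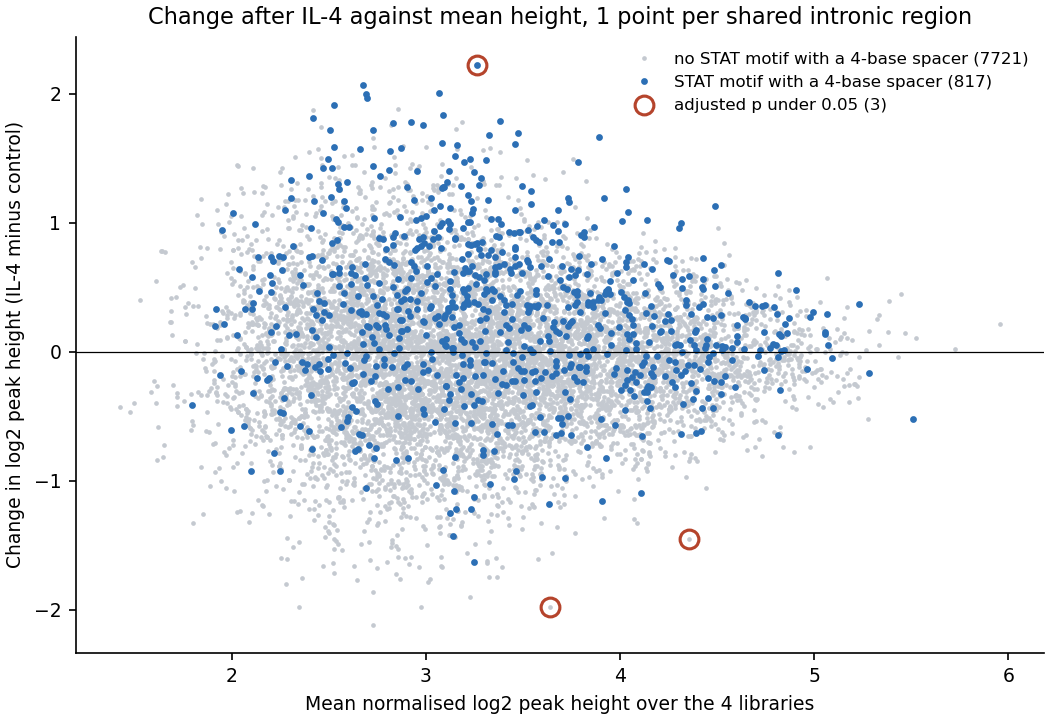
Log2 change after IL-4 against mean normalised log2 peak height, with 1 point for each of the 8538 shared intronic regions. The 817 regions with the 4-base spaced STAT motif have a median of 0.28, and the 3 circled regions, Tbc1d2b at 2.22, Tcf4 at −1.45 and Ascc3 at −1.98, passed the adjusted threshold.

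The change varied with the position of the 4-base motif within the region. When the nearest copy lay within 25 bp of the region centre (161 regions), the median log2 change was 0.43, and 78.3% of the changes were above 0. The median was 0.36 at 25 to 50 bp (138 regions), 0.27 at 50 to 100 bp, 0.20 at 100 to 150 bp and 0.059 beyond 150 bp (98 regions). The 3-base spacer gave 0.038, 0.15, 0.088, 0.011 and 0.034 in the same bins and the AP-1 motif −0.092, −0.11, −0.073, −0.12 and −0.053, without a steady course from the centre outward. Regions with 1 copy of the 4-base motif (765) had a median of 0.26 and those with 2 or more copies (52) of 0.44. A copy far from the centre needs a wide region, and several copies are likelier in one. Region width was not accounted for in these comparisons.

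**Figure D5:**
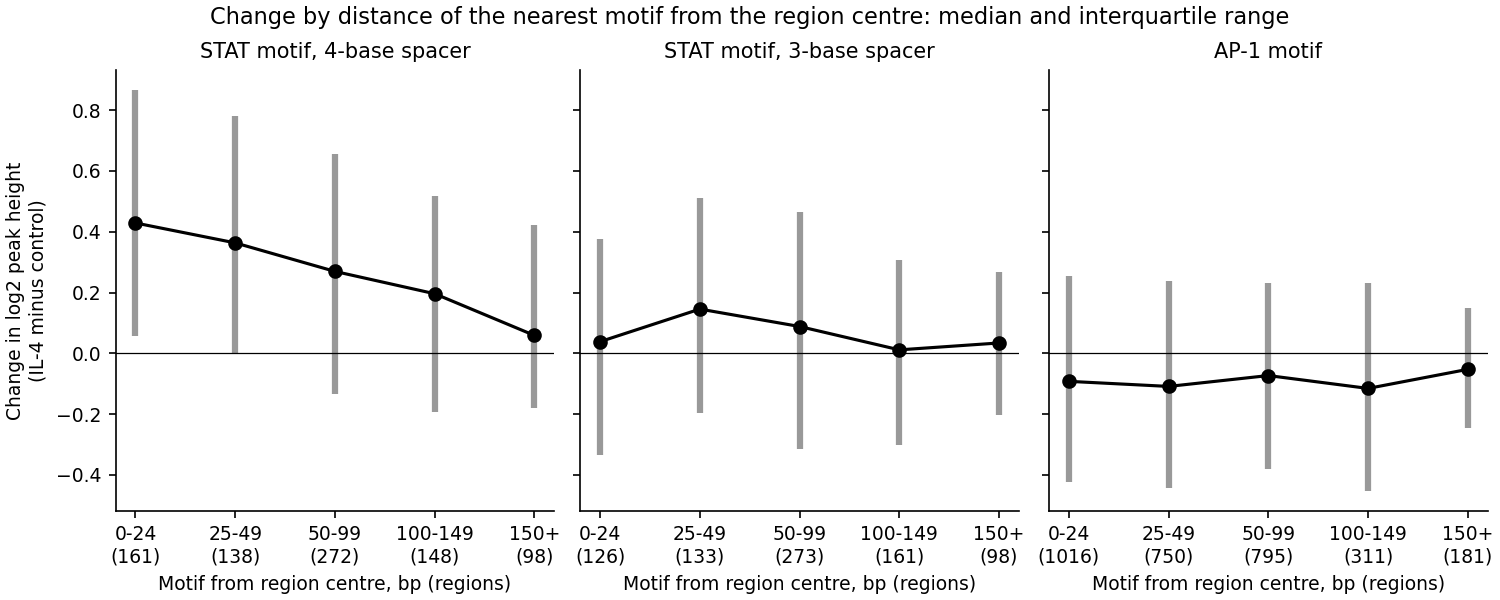
Change in log2 peak height after IL-4 by the distance of the nearest motif from the region centre in bp, for the STAT motif with a 4-base spacer (left), with a 3-base spacer (middle) and for AP-1 (right). Points are medians and bars the interquartile range. For the 4-base spacer the median runs from 0.43 at the centre to 0.059 beyond 150 bp.

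The letters of the spacer also went with the change among the 765 regions with a single copy. In 64 regions the spacer began with C and ended with G, giving TTCCNNGGAA, and their median log2 change was 0.57. It was 0.27 in the 391 regions with only one of these letters in place and 0.15 in the 310 regions with neither. The windows of Focad and Frmd4b above are of the first kind.

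The largest changes among regions with the motif were not all in one direction. After Tbc1d2b the largest positive differences included those in Dok6 (2.07), Frmd4b (2.0) and Asap2 (1.97), none of which passed the adjusted threshold. Frmd4b, a FERM domain protein, had heights of 3.79 and 3.40 in the controls and 12.18 and 11.79 after IL-4. Asap2, a GTPase-activating protein for Arf, had 3.17 and 3.78 against 16.91 and 8.22.

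At the opposite end, a region with the motif in intron 1 of Ptpn12, a protein tyrosine phosphatase, measured 20.02 and 16.12 in the controls and 6.62 and 3.73 after IL-4 (log2 difference −1.63, adjusted p = 0.234). Regions in Rbms1 (−1.43), Arhgap6 (nearest gene Amelx, −1.25), Pvt1 (−1.22) and Hecw2 (−1.22) followed, with adjusted p from 0.367 to 0.455. In all 5 both IL-4 heights were below both control heights, and the 5 were picked by the size of their fall. The value for Arhgap6 was not stable, because it became 0.38 when peaks within 500 bp were merged. That for Pvt1 was −0.75 without IL-4 replicate 2.

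Shared promoter and intergenic regions gave a scale for the intronic values. With the 4-base motif, 519 promoters had a median log2 change of 0.066 and 836 intergenic regions of 0.20, compared to 0.28 in introns. Relative to regions of the same class without the motif, the medians were higher by 0.34 in introns, 0.25 in intergenic DNA and 0.028 in promoters. The difference between the classes was not tested.

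Regions with an AP-1 motif showed the opposite difference. The motif TGANTCA was found in 3053 intronic regions (35.8%), against 9.22% of the flanking windows, 37.7% of the intergenic and 7.55% of the promoter regions. Regions with it were taller than those without in every library, by 0.266 and 0.248 in mean log2 height in the controls and by 0.162 and 0.175 after IL-4. The difference between the groups was −0.088 (0.257 ± 0.012, SD, n = 2, against 0.169 ± 0.0096, SD, n = 2), larger than the spread within them. The exact permutation p was again 0.33.

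Both motifs together gave intermediate values. Regions with the 4-base STAT motif and without AP-1 (482) had a median log2 change of 0.31, and those with both (335) of 0.21. Regions with AP-1 alone (2718) had −0.12, and regions with neither (5003) had −0.021. Within the regions that lacked the STAT motif, 2 or more AP-1 copies went with −0.13 (535 regions) and 3 or more with −0.21 (79 regions). The motifs overlapped each other in 13 of the 817 regions.

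Other lineage motifs were also more frequent in the regions than in their flanks. PU.1 (GAGGAAG) stood in 35.2% of the intronic regions against 10.9% of the flanking windows and went with a median change of −0.029. C/EBP (TTGCNNAA) stood in 17.2% against 12.4% and went with −0.084, and RUNX (TGTGGTT) in 12.8% against 8.02% and went with −0.066. Motifs were searched on both strands, a match is not evidence of binding, and TTCNNNNGAA overlapped PU.1 in 44 of the 817 regions.

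Intronic regions as a class were compared with promoters in each library. The mean log2 height of intronic regions minus that of promoter regions was −0.301 and −0.378 in the controls and −0.425 and −0.391 after IL-4, a difference of −0.069 (−0.339 ± 0.054, SD, n = 2, against −0.408 ± 0.024, SD, n = 2, exact permutation p = 0.33). The second control and second IL-4 libraries were close to each other, and without control replicate 1 the difference was −0.031. The median log2 change was −0.033 in introns, 0.039 in promoters and −0.017 in intergenic regions, and −0.00065 over all shared regions.

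Peak width gave a second readout. No intronic region passed an adjusted p of 0.05 for width in either direction (limma, background 0% higher and 0% lower over all shared regions), and 286 were wider and 304 narrower at an unadjusted p under 0.05 (3.35% and 3.56%, against 3.47% and 3.43% over all shared regions). Across the 8538 regions the log2 change of width and that of height correlated with r of 0.37, both taken from the same peaks.

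The genes nearest to the intronic regions were grouped by function, and each list was counted over all of its shared intronic regions. Counts at an unadjusted p under 0.05 are to be read against a background of 4.12% higher and 4.15% lower among all shared regions. None of the lists had a region past the adjusted threshold except that of transcription factors, with Tcf4. The IL-4 programme, genes known to respond to IL-4 in macrophages, had 32 intronic regions at 16 of 36 genes, with a median log2 change of 0.24 and 21 regions above 0, and 1 higher and 1 lower at an unadjusted p under 0.05. The tallest was in intron 4 of Tgm2, the transglutaminase that marks alternatively activated macrophages, with 37.43 and 32.67 in the controls and 39.64 and 31.82 after IL-4. Regions nearest to Egr3 (in Pebp4) and Arg1 (in Med23) had log2 differences of −0.15 and −0.18, and Tfec one of 0.55, with adjusted p from 0.647 to 0.924. Overlap between the groups was seen at Tgm2 and not at the region nearest to Arg1, where 22.21 and 22.86 stood against 19.35 and 15.67.

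The 2 regions of that list below an unadjusted p of 0.05 pointed in opposite directions. A region 9325 bp from the start of Il4i1, an amino acid oxidase secreted by myeloid cells, measured 8.63 and 2.51 in the controls and 12.50 and 9.44 after IL-4 (log2 difference 1.45, adjusted p = 0.411). One in Tmem236, 18466 bp from the start of Mrc1, the mannose receptor, measured 10.64 and 13.60 against 3.43 and 6.72 (−1.08, adjusted p = 0.584). Within Mrc1 itself a region in intron 1 with the 4-base motif measured 7.26 and 6.14 against 15.74 and 6.87 (0.89, adjusted p = 0.647), and the mannose receptor locus therefore held values in both directions.

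The genes that the study names as repressed by IL-4 had 12 intronic regions at 6 genes, with a median of −0.32 and 9 below 0, and 0 higher and 2 lower at an unadjusted p under 0.05 (background 4.12% and 4.15%). The study chose these genes from its own data on this system, so their direction is not independent evidence. At Abca1, a cholesterol exporter, a region in intron 1 measured 15.45 and 10.07 in the controls and 4.76 and 2.49 after IL-4 (log2 difference −1.61, adjusted p = 0.323). Its tallest region, in intron 5, measured 12.46 and 20.40 against 10.48 and 8.04. At Smad3, a mediator of TGF-β signalling, a region in intron 1 measured 21.66 and 10.50 against 9.33 and 4.37 (−1.03, adjusted p = 0.553). Regions nearest to Il1b and Clec4d had log2 differences of 0.30 and −0.34.

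Macrophage identity genes had 36 intronic regions with a median of 0.021, and 2 higher and 0 lower at an unadjusted p under 0.05 (background 4.12% and 4.15%). Both of the 2 carried the 4-base motif. In intron 8 of Msr1, a scavenger receptor, heights were 16.00 and 20.32 in the controls and 26.06 and 27.14 after IL-4 (log2 difference 0.72, adjusted p = 0.437). In intron 2 of Runx1 they were 7.96 and 8.63 against 16.53 and 13.61 (1.10, adjusted p = 0.432). The tallest regions of Ptprc, Runx1 and Csf1r, of which Csf1r encodes the M-CSF receptor, had log2 differences of −0.057, 0.14 and −0.14.

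NF-κB and Toll-like receptor signalling genes had 44 intronic regions with a median of 0.076, and 3 higher and 1 lower at an unadjusted p under 0.05 (background 4.12% and 4.15%). Nfkb1, an NF-κB subunit, measured 3.17 and 3.78 in the controls and 9.84 and 6.12 after IL-4 in intron 5, and Ly96, the TLR4 partner MD-2, measured 5.89 and 7.62 against 14.50 and 8.86 in intron 1. Tnip1, an inhibitor of the pathway, measured 12.77 and 10.49 against 19.57 and 14.64. The lower region was near Traf3, an adaptor of the pathway, with 18.09 and 22.25 against 3.80 and 7.78. The 4 adjusted p-values ran from 0.218 to 0.586. The tallest regions, nearest to Tbk1, Ikbkb, Irak4 and Ikbke, all had log2 differences between −0.23 and −0.15.

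Phosphoinositide and kinase signalling genes had 99 intronic regions with a median of −0.061, and 3 higher and 7 lower at that unadjusted p (background 4.12% and 4.15%). The lower ones included 2 regions in intron 1 of Jak1, a kinase of the IL-4 receptor, with 14.35 and 17.02 in the controls against 5.89 and 4.69, and 19.07 and 13.63 against 4.11 and 3.78 (log2 differences −1.35 and −1.78, adjusted p = 0.374 and 0.228). Inpp4b, a phosphoinositide phosphatase, had values in both directions, 30.95 and 19.45 against 9.64 and 16.43 in intron 3 and 5.65 and 2.66 against 10.74 and 9.37 in intron 5. The second of these regions held the 4-base motif. The tallest regions were in Plcg2, Inpp4b and Inpp5d, with log2 differences of −0.18, −0.21 and 0.40, and in Dgkz, a diacylglycerol kinase, with −0.79.

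Transcription factor and repressor genes had 158 intronic regions with a median of −0.10, and 5 higher and 6 lower at that p (background 4.12% and 4.15%). Beside Tcf4, the ETS factor Fli1 had values in both directions, 14.42 and 21.50 against 31.09 and 18.41 and, in the same intron 1, 16.20 and 15.96 against 5.22 and 7.86. The tallest regions of Nfia, Tle4, Runx1 and, in Dlgap1, nearest to Tgif1 had log2 differences of 0.091, −0.052, 0.14 and −0.38. Endolysosome and lipid handling genes had 56 intronic regions with a median of −0.042, and 3 higher and 4 lower at that p, against the same background. Ctsz, a cathepsin, measured 14.81 and 8.67 in the controls and 22.58 and 16.26 after IL-4 in intron 2, where it holds the 4-base motif. Atp6v0d2, a subunit of the vacuolar proton pump, measured 26.57 and 17.56 against 7.86 and 6.78. The tallest regions were in Nceh1, Snx29, Abca9 and Msr1, with −0.11, −0.14, 0.22 and 0.72.

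The lists of other cell types had few intronic regions, from 0 for neutrophils to 4 for fibroblasts and endothelium, and none passed the adjusted threshold. At an unadjusted p under 0.05 there were Ms4a1 (lower), Flt3 (lower), Pecam1 (higher) and Map2 (higher), with log2 differences of −1.20, −1.66, 1.49 and 1.46. The background over all shared regions was 4.12% higher and 4.15% lower. T cell markers had 2 regions, erythroid and megakaryocyte markers 2 and mast cell and basophil markers 1, with none below that p.

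The regions were spread over 4794 nearest genes, of which 2967 had a single one. At least 5 were counted for 245 genes, which together held 1559 regions. Elmo1 had the most, 15, with a median log2 change of −0.19 and changes from −1.29 to 0.83. Sgms1, a sphingomyelin synthase, had 13 with a median of −0.36 and changes from −1.76 to 1.27. Foxp1, a forkhead transcription factor of monocytes and macrophages, and Gm3833, whose regions lie in Fhit, had 12 each, with medians of 0.13 and −0.13. Arhgap24, Nav2 and Tns3 had 11 each (−0.32, −0.075 and −0.12), and Dhrs3, Dock10 and Ext1 had 10 each (−0.0073, 0.089 and 0.057). Counted by host gene, Pde4d, a cAMP phosphodiesterase, came first with 22.

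Directions within a gene were counted as well. Of 78 genes with 2 or more intronic regions at an unadjusted p under 0.05, 19 had them all higher, 23 all lower and 36 in both directions. Over all shared intronic regions 392 were higher and 457 lower at that p. The number of mixed genes to be met without any relation within a gene was not computed. In Sgms1, 2 were higher and 1 lower, and in Fat3 all 3 were lower.

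The 10 tallest intronic regions had log2 differences between −0.52 and 0.45. The first by mean height, in intron 33 of Uggt2, a glycoprotein-folding sensor, measured 60.09 and 56.10 in the controls and 66.94 and 65.68 after IL-4 (log2 difference 0.22, adjusted p = 0.692). Those in Hsd11b1, which reactivates glucocorticoids, Adgrl4, Pde1c, Aktip, Kcnh1, Ppm1h, Xrcc4 and Nedd4l had log2 differences between −0.044 and 0.45. The remaining one, in intron 8 of Rufy3, measured 60.55 and 48.43 against 42.19 and 32.28 (−0.52, adjusted p = 0.318). None of the 10 passed. Several of these tall regions carry repeat labels, (TTAGGG)n in Hsd11b1 and Pde1c and (CCCTAA)n in Kcnh1. The region in Uggt2 is labelled as an ORR1D2 LTR element and that in Adgrl4 as a B3A SINE element.

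At the edge of the class, the members with the weakest peak in any library were in Mgat5, with 9.72, 7.41, 12.14 and 1.32, in Creg1, with 11.02, 8.89, 7.73 and 1.33, and in Chd4, with 9.53, 7.29, 7.16 and 1.33, the low value being the second IL-4 library each time. Another 3525 intronic regions had a peak in 3 libraries and were left out, 1560 of them for lack of a peak in the second IL-4 library and 439 for lack of one in the first control. The tallest of those just outside lay in Trim3, with 16.47, 14.25 and 18.41 and no peak in the second control, in Inf2, with 16.78, 15.60 and 12.80 and none in the second IL-4 library, and in Dscam, with 16.75, 11.18 and 11.67 and none in the first IL-4 library.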

How the data were processed

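ATAC-seq libraries of untreated and IL-4-stimulated BMDMs were grouped by their labels, with 2 libraries in each group described by the study as biological replicates. The authors aligned reads to mm10 and called and annotated peaks for each library alone, and the submitters' processing notes name BWA 0.7.10, SAMtools 0.1.19, MACS2 2.0.10 and HOMER 4.2. The deposited Peak Score was read as −log10 of the MACS2 q-value from its values, since the lowest was 1.3 and no label states the unit. A cut-off of q of 0.01 in the study's methods would be a score of 2, so lower peaks were left out in an alternative. Duplicate and Tn5 shift handling are not given in the sources used here. Depth is unknown, and heights and widths grow with it.

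A region took the highest peak of each library. Log2 heights of the 25442 regions shared by 4 libraries were quantile-normalised, and log2 summed peak widths were centred on the median of each library. Both were fitted with limma 3.58.1 in R 4.3.3 with a variance trend, with Benjamini-Hochberg adjustment over all of these regions. A change is IL-4 minus control on this log2 scale and is not a ratio of reads. Single values per library were compared by exact two-sided permutation over libraries. P-values refer to these libraries only. In limma the variance of a region is drawn in part from the trend over all 25442 regions, not from its own 4 values alone. Introns, GC content and 20 motifs were read from GRCm38.p6 and its RefSeq annotation. The merging, motif search and fit were tested on simulated data.

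The regions, gene lists, motifs and tests were chosen with earlier results of these data known. Named were regions past an adjusted p of 0.05, the 10 with the lowest p in each direction that moved alike in both same-numbered pairs, the 10 tallest, the 10 genes with most regions, up to 4 tall regions of each list, the 5 largest changes each way with the 4-base motif, and 3 on each side of the selection edge. Some of these are not reported here. Other genes of the lists were named for an unadjusted p under 0.05, after their values were seen, as were the spacer letters, the share of motifs by size of change and the counts of genes with several regions. The alternatives were a replicate block, median centring, no variance trend, summed heights, a higher score, merging within 500 bp, motifs within 50 bp of the centre and leaving out each library.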

Additional observations from a re-analysis of the deposited data

How the results depend on the processing

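Peak calls for intronic heights depended on the settings. Against 1 higher and 2 lower regions, a replicate block, median centring and a score of at least 2 each gave 2 higher with 2 lower, merging within 500 bp gave 1 and 2, and both an untrended variance and summed heights gave 0 and 0. Leaving out 1 library gave 0 to 5 higher and 0 lower, where a lone library is assumed to vary like the other group. The counts at an unadjusted p under 0.05 then ran from 234 to 359 higher and from 271 to 475 lower. Tbc1d2b changed by 2.12 to 2.31, Ascc3 by −2.09 to −1.90 and Tcf4 by −1.81 to −1.07 over the 10 alternatives, with adjusted p of up to 0.735 for each. Among the 27 regions so followed 1 turned its direction, Amelx (0.38 with peaks merged within 500 bp). That merging also took Snap47 from 1.84 to 0.55, and Pvt1 went from −1.22 to −0.75 and Alg12 from −1.75 to −1.14 without IL-4 replicate 2. Width gave 0 intronic calls in each direction under all alternatives.

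The contrast of regions with the 4-base spaced STAT motif was 0.30 to 0.45 over its alternatives, that of AP-1 −0.097 to −0.072 and that of introns against promoters −0.11 to −0.031, and the intronic share of peaks differed by −1.54 to −0.547 points. All kept their direction, though p cannot fall below 0.33 here. After normalisation, the difference between the controls and that between the IL-4 libraries correlated with r of 0.0068 over all shared regions. Whether the replicate numbers pair the libraries cannot be told from this value. A replicate block gave 11 higher and 3 lower over all shared regions, against 4 and 2 in the main fit. With the replicate block the contrast for the 4-base spacer stayed 0.35 and its smallest possible p was 0.5. The low number of calls and the unknown depth limit what can be said of any single region.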

Other observations

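Telomere-like repeats stood out among the intronic regions by height. The 47 regions labelled (TTAGGG)n or (CCCTAA)n had median heights of 18.89 and 20.04 in the controls and 23.08 and 19.61 after IL-4, compared to 11.78 and 10.14 against 10.16 and 7.89 for the 6647 regions with no repeat or CpG label. Their median log2 change was 0.31 (0.41 and 0.18 in the same-numbered pairs). Of the 47, 41 were above 0, compared to 3068 of the 6647 regions without a label. At an unadjusted p under 0.05, 5 were higher and 0 lower, against 4.12% and 4.15% of all shared regions. None of the 47 held the STAT motif with a 4-base spacer. Reads that align to several places in such repeats could not be examined, since the files hold no reads.

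The ORR1E family of long terminal repeats had 53 intronic regions with a median log2 change of −0.22, of which 23 were above 0, and medians of −0.071 and −0.20 in the same-numbered pairs. The 57 regions labelled MTD, the family that the Ascc3 region belongs to, had a median of 0.042, and 1 was higher and 3 lower at that p.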
